A study of Homo sapiens with 17 samples.

Results

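GAS5, SNHG1, SNHG5, SNHG6, SNHG7, SNHG8, SNHG12, SNHG15, SNHG16 and ZFAS1 are spliced non-coding genes that carry snoRNAs in their introns. They were taken by gene name from the deposited table of ribosome-dependent editing, where all 10 names were found among 18869 genes and all 10 were recorded as lncRNAs. The measurements come from Ribo-STAMP in HEK293T, an established line of human embryonic kidney origin. Both kinds of cells carried a stably inserted, doxycycline-inducible construct, which doxycycline at 50 ng/mL switched on for 24 h, and both were crosslinked with 0.1% formaldehyde. RPS2-STAMP cells expressed the cytidine deaminase APOBEC1 joined to the small-subunit protein RPS2 and gave 9 samples, 3 each of Input, PABPN IP and PABPC IP. Control-STAMP cells expressed APOBEC1 alone and gave 8 samples, 3 of Input, 3 of PABPN IP and 2 of PABPC IP. Both lines were made by lentiviral integration. According to the study's text, the cells were fractionated and the IPs were made from the cytoplasmic part alone, with cytoplasmic Input, so that ratios of an IP to Input are within that part, whereas the sample labels mention no such step. An edit records contact with the tagged small subunit, during scanning or elongation.

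SnoRNA host genes are transcribed by RNA polymerase II, and their snoRNAs are trimmed out of excised introns to guide the modification of ribosomal and spliceosomal RNA. In many hosts the snoRNA is the conserved product. The spliced RNA left behind holds only short, poorly conserved reading frames, reaches ribosomes in the cytoplasm and is in several cases degraded by nonsense-mediated decay. Many hosts start with a terminal oligopyrimidine tract, the element that couples ribosomal protein mRNAs to growth signalling.

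Windows of 30 bases around the annotated start were read for 8 members from the RefSeq promoter table (GRCh38.p14). Each ran from 10 bases before the start to 20 bases from it. No window was read for SNHG6 or SNHG15, and whether the table holds an entry for either was not settled here. Because this element belongs to the biology of the family, 5 of the 8 windows are shown, from members on both sides of the comparison between the IPs. GAS5 among them was close to the median gene in TPM, and the windows of SNHG1, SNHG7 and SNHG8 are not shown. In each, capitals mark the longest unbroken run of C and T, and the annotated start is the base after the first 10.
SNHG5: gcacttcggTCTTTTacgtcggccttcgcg
SNHG12: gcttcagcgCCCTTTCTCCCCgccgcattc
ZFAS1: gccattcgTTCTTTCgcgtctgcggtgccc
SNHG16: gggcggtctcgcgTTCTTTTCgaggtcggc
GAS5: tcatgaattcagatgtgtttaTTTTggagc
The windows were chr6:85678714-85678743 (minus strand), chr1:28581854-28581883 (minus strand), chr20:49278632-49278661 (plus strand), chr17:76557754-76557783 (plus strand) and chr1:173869026-173869055 (minus strand). A C at the annotated start followed directly by at least 4 more C or T bases, read on the gene's own strand, was found in 3 of the 8 windows, those of SNHG5, SNHG12 and ZFAS1. Among all 35116 windows of the table the share was 4.07%, and among 15801 windows of protein-coding genes it was 5.12%. SNHG12 had the longest run, 12 bases, and GAS5 had a run of 4. The RefSeq start need not be the outermost start in GENCODE 44. It lay inside the GENCODE gene by 1259 bases in SNHG12, 464 in ZFAS1, 199 in SNHG5, 68 in SNHG1, 59 in SNHG8 and 37 in SNHG16, matched its outer end in SNHG7, and lay 163 bases upstream of it in GAS5, whose whole window is outside that gene. A run of at least 8 bases anywhere in the window was present in 2 of 8 members and in 12.7% of all windows. An annotated start need not be the base at which transcription begins in HEK293T cells, which was not measured.

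Editing was expressed as EPKM, a count of edits scaled to transcript length and to the mapped reads of the library, from which the authors subtracted the EPKM of the control. Transcript levels were given as average TPM in each fraction, and whether RPS2-STAMP samples, Control-STAMP samples or both entered these averages is not given in the sources used here. For enrichment in the same fractions the study pooled both kinds of cells. Each gene has 1 pooled value per fraction, so no SD, n or test accompanies any value, and genes that are neighbours in an order cannot be told apart from error. The values come without counts, and the depth behind each is unknown. EPKM is not divided by transcript level, and across 10391 genes its Spearman correlation with TPM was 0.52 in Input, 0.23 in PABPN IP and 0.44 in PABPC IP, as a description of values that share their libraries. Among the 489 other lncRNAs it was 0.32, 0.08 and 0.14. The 10391 genes are those with a recorded biotype that reached 5 TPM in each IP, and all 10 members were among them.

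GAS5 (ENSG00000234741) had much lower editing in PABPC IP than in Input. This gene accumulates in growth-arrested cells and has 11 annotated snoRNA genes within it, nearly all of the box C/D kind that guides ribose methylation. Its normalized EPKM was 0.171 in Input, 0.0446 in PABPN IP and 0.00193 in PABPC IP. The PABPC IP value was thus near 0 although the transcript was abundant there. Its TPM was 81.6 in Input, 239 in PABPN IP and 181 in PABPC IP, higher in both IPs than in Input. SNHG1 (ENSG00000255717), the host of SNORD22 and SNORD25 to SNORD31, resembled it. Its EPKM was 0.188 in Input, 0.0584 in PABPN IP and 0.00761 in PABPC IP. Its TPM was 52.2, 248 and 129 in the same order. In both genes editing was highest in Input and lowest in PABPC IP, and TPM was highest in PABPN IP. On the log2(EPKM + 0.01) scale, PABPC IP differed from Input by -3.93 in GAS5 and by -3.49 in SNHG1, and PABPN IP differed from Input by -1.73 and -1.53. With a pseudocount of 0.1 EPKM these were -1.41 and -1.42, and -0.91 and -0.86.

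SNHG16 (ENSG00000163597), which hosts the 3 SNORD1 genes, was by far the most abundant member. Its TPM was 484 in Input, 834 in PABPN IP and 1284 in PABPC IP. No other lncRNA among the genes used had a higher TPM in either IP. Its EPKM was 0.202 in Input, 0.0201 in PABPN IP and 0.0716 in PABPC IP. It therefore shared the high Input value of GAS5 and SNHG1, but its lowest value was in PABPN IP. SNHG5 (ENSG00000203875), the host of SNORD50A and SNORD50B, was the other member with its highest TPM in PABPC IP. Its TPM was 19.6 in Input, 32.6 in PABPN IP and 63.9 in PABPC IP, and its EPKM was 0.0860, 0.0669 and 0.120. On the log2(EPKM + 0.01) scale, the fractions of SNHG5 lay close together, with PABPC IP 0.76 above PABPN IP and 0.44 above Input.

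**Figure D1:**
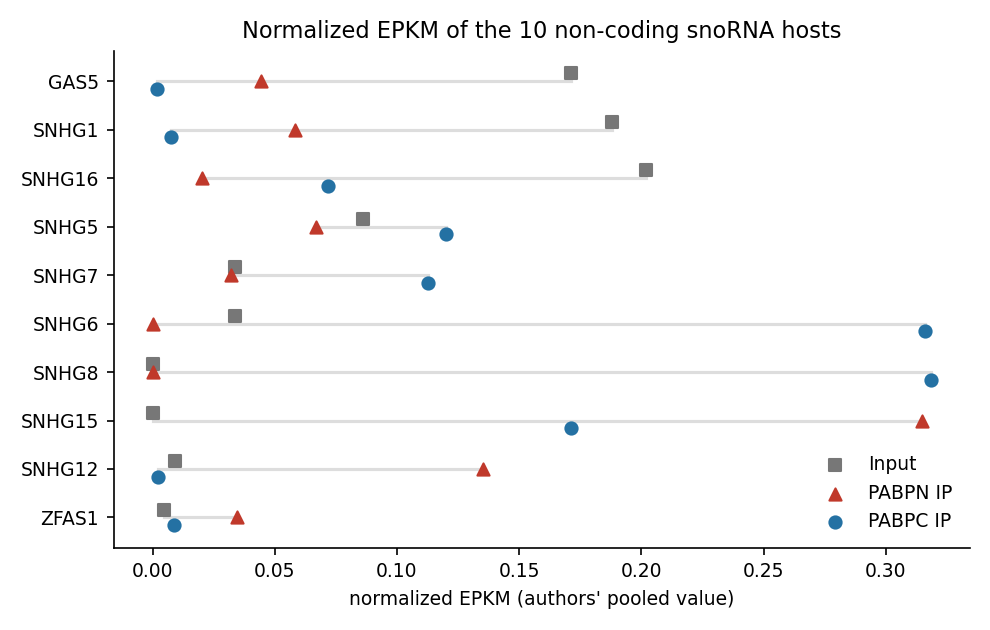
Normalized EPKM of each member (horizontal axis, the authors' pooled value) in Input (squares), PABPN IP (triangles) and PABPC IP (circles), with a line spanning the 3 values of a gene. GAS5, SNHG1 and SNHG16 have their highest value in Input, SNHG5, SNHG7, SNHG6 and SNHG8 in PABPC IP, and SNHG15, SNHG12 and ZFAS1 in PABPN IP.

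SNHG6 (ENSG00000245910) carries a single box C/D snoRNA gene, SNORD87. It was listed at 0 in PABPN IP, with an EPKM of 0.0339 in Input and 0.316 in PABPC IP. SNHG8 (ENSG00000269893), the host of SNORA24, was listed at 0 in Input and in PABPN IP, and its EPKM in PABPC IP was 0.318. These were the highest PABPC IP values of the members, and both exceeded those of 99.4% of the 489 other lncRNAs and 98.4% of the 9607 protein-coding genes (PCGs). Both transcripts were present where they were listed at 0. The TPM of SNHG6 was 21.8 in Input, 89.8 in PABPN IP and 72.6 in PABPC IP. That of SNHG8 was 9.95, 33.3 and 15.6, the lowest Input level among the members. For both genes TPM was higher in PABPN IP than in PABPC IP, the opposite order to their EPKM.

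SNHG7 (ENSG00000233016) hosts SNORA17A and SNORA17B, box H/ACA snoRNAs of the kind that guides pseudouridylation. Its EPKM was 0.0337 in Input, 0.0323 in PABPN IP and 0.113 in PABPC IP, so that Input and PABPN IP were alike and PABPC IP was higher. Its TPM was 31.8, 98.9 and 79.1. SNHG15 (ENSG00000232956), the host of SNORA9, was listed at 0 in Input and had an EPKM of 0.315 in PABPN IP and 0.171 in PABPC IP. Its PABPN IP value was the highest among the members and exceeded those of 98.6% of other lncRNAs and 99.2% of PCGs. SNHG15 was the one member among the 3 most edited in both IPs. Its TPM was 24.9 in Input, 114 in PABPN IP and 60.4 in PABPC IP.

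SNHG12 (ENSG00000197989) hosts 3 H/ACA snoRNAs and the box C/D snoRNA SNORD99. Its EPKM was 0.00907 in Input, 0.135 in PABPN IP and 0.00245 in PABPC IP, and its TPM was 13.4, 88.5 and 9.69. SNHG12 was the only member with a lower TPM in PABPC IP than in Input, and both editing and transcript level were highest in PABPN IP. ZFAS1 (ENSG00000177410), transcribed from the start region of ZNFX1 on the opposite strand and the host of the SNORD12 genes, had its highest editing in PABPN IP. Its EPKM was 0.00480 in Input, 0.0348 in PABPN IP and 0.00894 in PABPC IP, with a TPM of 16.8, 65.4 and 28.8. Here, too, PABPN IP held the highest TPM, and its EPKM there exceeded that of 63.0% of other lncRNAs and 50.9% of PCGs.

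The 10 members thus split by the fraction with the highest editing, Input for 3, PABPC IP for 4 and PABPN IP for 3. Over all 10391 genes the shares were 26.2%, 42.2% and 29.2%. All 10 members were above 0 in PABPC IP, against 81.2% of all genes used, 8 in Input, against 76.5%, and 8 in PABPN IP, against 72.1%, so that the last 2 shares lie near the background. With at least 0.01 EPKM in place of above 0, the number was 6 in PABPC IP, against 75.6% of all genes used, 6 in Input, against 65.9%, and 8 in PABPN IP, against 65.5%. Of the members, 7 were above 0 in all 3 fractions, which held for 48.6% of all genes used, 21.9% of other lncRNAs, 50.5% of PCGs, 57.1% of the other non-coding snoRNA hosts described later and 73.1% of protein-coding ones. With at least 0.01 EPKM, only SNHG5, SNHG7 and SNHG16 remained, because GAS5, SNHG1, SNHG12 and ZFAS1 were below it in PABPC IP. The share of all genes at that limit in every fraction was not counted. Divided by the TPM of the same fraction, editing ranked highest in SNHG5 in Input, in SNHG15 in PABPN IP and in SNHG8 in PABPC IP. This division moved the highest fraction of SNHG5 from PABPC IP to Input and that of SNHG15 from PABPN IP to PABPC IP, and left it in place for the other 8 members.

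Editing with PABPC was compared with editing with PABPN, the comparison for which the IPs were made. On the log2(EPKM + 0.01) scale, 4 of the 10 members were at least 2-fold higher in PABPC IP (SNHG6, SNHG7, SNHG8 and SNHG16), against 35.9% of the 10391 genes. Another 4 were at least 2-fold lower (GAS5, SNHG1, SNHG12 and ZFAS1), against 21.7%. Among other lncRNAs these shares were 32.1% and 27.4%. The first share lies near the background, and the second, with 10 genes and no test, is given as a count. SNHG7 was higher in PABPC IP by 1.54 and SNHG16 by 1.44 on this scale. The differences in the other direction were -3.54 in SNHG12, -2.19 in GAS5, -1.96 in SNHG1 and -1.24 in ZFAS1. SNHG5, at 0.76, and SNHG15, at -0.84, were inside the limits. These sizes depend on the pseudocount. With 0.1 EPKM, the differences were 0.68 in SNHG7, 0.51 in SNHG16, -1.20 in SNHG12, -0.50 in GAS5, -0.56 in SNHG1 and -0.31 in ZFAS1. At this pseudocount 2 members were higher and 1 was lower past 2-fold, with no share of all genes at this setting beside them. With 0.001 EPKM, the difference of GAS5 was -3.96. The median over the members was -0.04, beside 0.29 over all genes used.

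**Figure D2:**
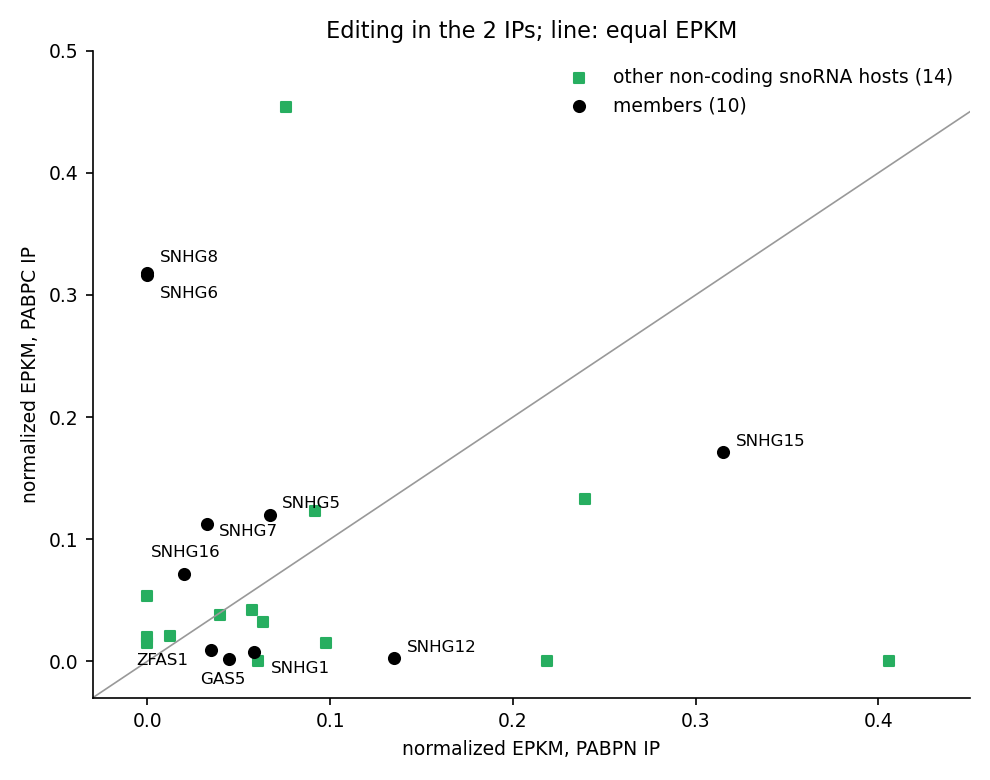
Normalized EPKM in PABPN IP (horizontal axis) and PABPC IP (vertical axis) for the 10 members (circles, named) and 14 other non-coding snoRNA hosts (squares), with a line where both are equal. SNHG6 and SNHG8 lie at 0 in PABPN IP and above 0.3 in PABPC IP, while GAS5, SNHG1, SNHG12 and ZFAS1 lie near 0 in PABPC IP.

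Against Input, 3 members were at least 2-fold higher in PABPN IP (SNHG12, SNHG15 and ZFAS1), against 29% of genes. SNHG12 was higher by 2.93 and ZFAS1 by 1.60 on the log2(EPKM + 0.01) scale, and by 1.11 and 0.36 with a pseudocount of 0.1 EPKM. In the opposite direction, 4 were at least 2-fold lower in PABPN IP (GAS5, SNHG1, SNHG6 and SNHG16), against 29.1%. With a pseudocount of 0.1 EPKM the number of members was 1, with no share of genes at that setting beside it. SNHG16 differed by -2.81, or by -1.33 with that pseudocount, and SNHG6, listed at 0 in PABPN IP, has no fold. In PABPC IP, 4 members were at least 2-fold higher than in Input (SNHG6, SNHG7, SNHG8 and SNHG15), against 35.3%, and 3 were at least 2-fold lower (GAS5, SNHG1 and SNHG16), against 19.6%. SNHG16 differed by -1.38, but by -0.81 with a pseudocount of 0.1 EPKM, where it was no longer past 2-fold. SNHG6 was higher by 2.89 and SNHG7 by 1.49, and by 1.64 and 0.67 with a pseudocount of 0.1 EPKM. The shares called higher lay near the background, and nothing is read from those called lower, which depend on the pseudocount. GAS5 and SNHG1 were lower in both IPs than in Input, as was SNHG16, and SNHG15 was above its Input value of 0 in both.

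As a group, the members had a median EPKM of 0.0338 in Input, 0.0397 in PABPN IP and 0.0922 in PABPC IP. The medians over the 489 other lncRNAs were 0.00267, 0.0132 and 0.0197, lower in each fraction. The medians over PCGs were 0.0273, 0.0334 and 0.0501, also lower, but with at least 20 TPM required in each IP the members' median in PABPN IP minus that of PCGs was -0.00504 EPKM. In PABPC IP this requirement reduced the difference from PCGs from 0.0421 to 0.0138 EPKM. The requirement also removed SNHG8 and SNHG12, so that these values cover 8 members. It left their median above that of other lncRNAs by 0.0239 EPKM in Input, 0.00292 in PABPN IP and 0.0596 in PABPC IP. With hosts taken from the annotation in place of the members, chosen after seeing the data, the difference from other lncRNAs in PABPC IP was 0.0157 in place of 0.0725 EPKM. The members were also more abundant than other lncRNAs. Their median TPM was 23.3 in Input, 94.3 in PABPN IP and 68.3 in PABPC IP, beside 4.90, 18.9 and 9.75 for other lncRNAs. The part of transcript level in the difference in EPKM was not tested. Within the group the range was wide, and in PABPC IP it ran from 0.00193 in GAS5, above 38.0% of other lncRNAs, to 0.318 in SNHG8.

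TPM was higher in both IPs than in Input for 9 of 10 members, all but SNHG12, as for 92.5% of all genes used. It was highest in PABPN IP for 8 members, against 58.7% of all genes used and 82.4% of other lncRNAs, a share that the members matched. Because most genes shared this rise, log2 ratios were centred on their median over the 10391 genes, which was 1.18 for PABPN IP to Input, 1.01 for PABPC IP to Input and 0.23 for PABPN IP to PABPC IP. A threshold of 0.5 on the centred scale was used for calls. For PABPN IP to Input, 6 members were higher past it, against 25% of genes, and 0 were lower, against 22.9%. They were SNHG12 (1.54), SNHG1 (1.07), SNHG15 (1.02), SNHG6 (0.86), ZFAS1 (0.78) and SNHG8 (0.56). SNHG7 (0.46) and GAS5 (0.37) were below the threshold, and SNHG16 (-0.39) and SNHG5 (-0.45) had values below 0, which were above 0 without centring. The 6 of 10 resembled the 58.3% of other lncRNAs that were higher past the threshold. Centred on the median over lncRNAs, 1 member was higher (SNHG12, 0.90) and 2 were lower (SNHG5, -1.09, and SNHG16, -1.03), and the values of SNHG7, GAS5 and SNHG8 changed sign. Centred over every gene above 0 TPM in both fractions, 5 were higher and 2 lower. The shares of genes given above are for the main centring alone, so the numbers at other centrings have no share beside them.

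**Figure D3:**
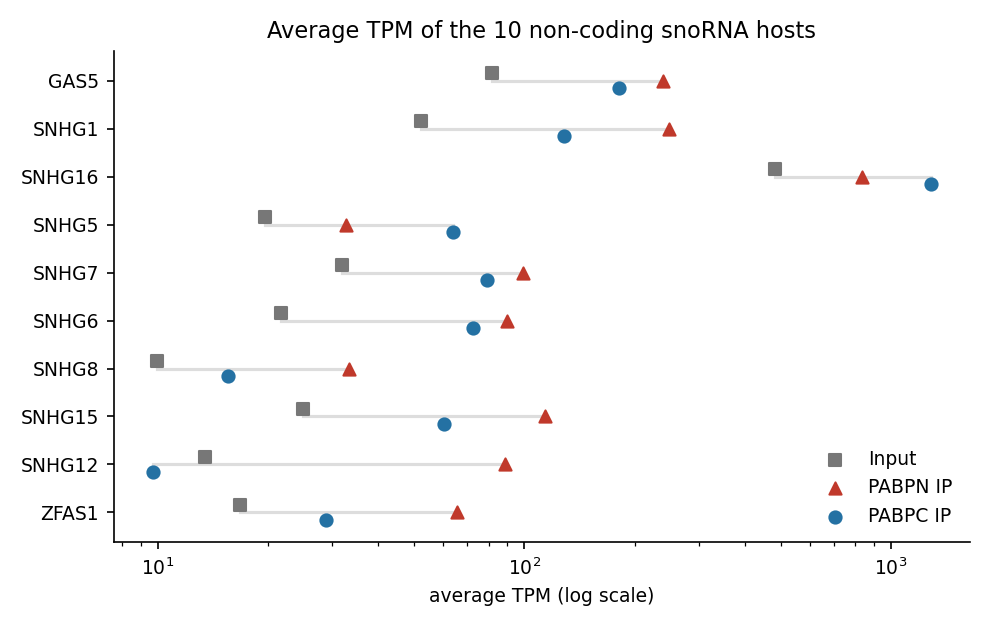
Average TPM of each member (log axis) in Input (squares), PABPN IP (triangles) and PABPC IP (circles), with a line spanning the 3 values of a gene. TPM is highest in PABPC IP for SNHG16 and SNHG5 and in PABPN IP for the other 8 members.

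For PABPC IP to Input, 2 members were higher past the threshold (SNHG6, 0.73, and SNHG5, 0.70), against 8.3% of genes, and 1 was lower (SNHG12, -1.48), against 18.5%. Among other lncRNAs these shares were 13.3% and 9.82%. The other 7 lay between -0.36 in SNHG8 and 0.40 in SNHG16. Without centring, 9 members were higher and 0 lower, and the values of SNHG8 and ZFAS1, below 0 when centred, were above 0. Centred on the median over lncRNAs, 2 were higher and 2 were lower, SNHG8 having reached -0.52, and GAS5 was just below 0. Here, too, the shares of genes are for the main centring alone. With the ratios centred on all genes used, SNHG6 was the one member called higher in both IPs and SNHG12 the one called in opposite directions. Centred on lncRNAs, SNHG6 was not called for PABPN IP (0.22), and without centring 9 members were higher in both IPs and SNHG12 was not called for PABPC IP (-0.47).

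**Figure D4:**
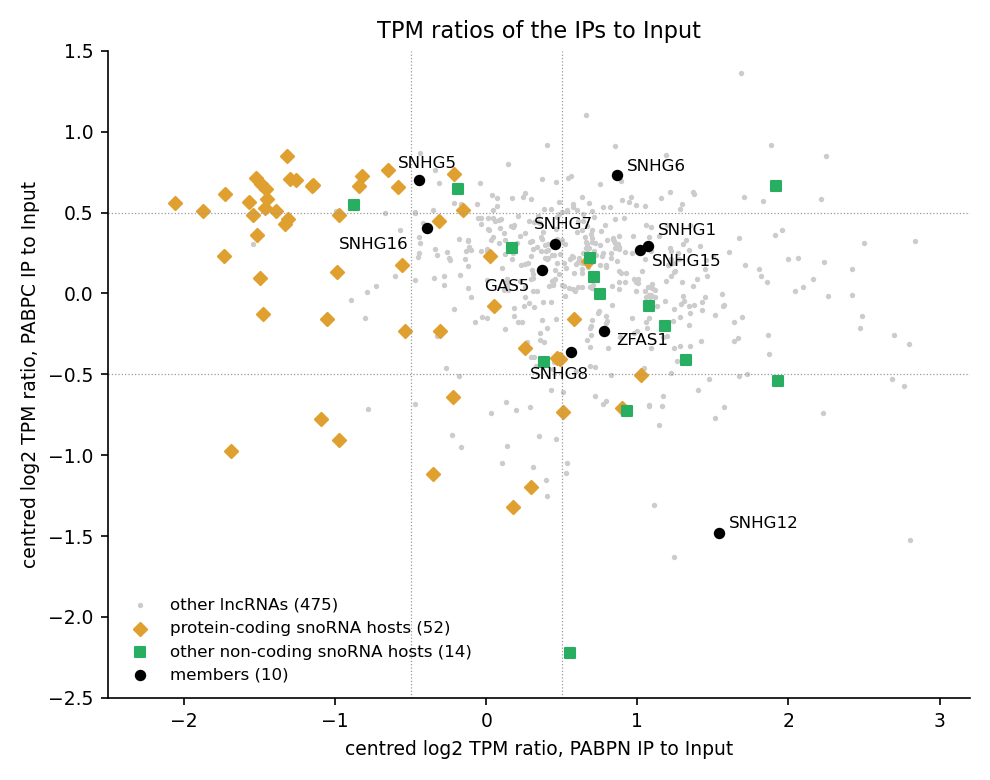
Centred log2 TPM ratio of PABPN IP to Input (horizontal axis) and of PABPC IP to Input (vertical axis) for the members (black, named), 14 other non-coding snoRNA hosts, 52 protein-coding snoRNA hosts and 475 further lncRNAs, of which 6 lie outside the axes. Dotted lines mark the threshold of 0.5 in each direction, and SNHG12 lies apart from the other members at 1.54 and -1.48.

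Between the IPs, 5 members had a higher TPM in PABPN IP past the threshold, against 31.7% of genes, and 2 had a lower one, against 30.8%. Among other lncRNAs the shares were 48.3% and 9.20%, so that the higher share matched that of lncRNAs. The higher ones were SNHG12 (2.96), ZFAS1 (0.96), SNHG8 (0.87), SNHG1 (0.72) and SNHG15 (0.69), and the lower ones were SNHG5 (-1.20) and SNHG16 (-0.85). GAS5 (0.17), SNHG7 (0.10) and SNHG6 (0.08) were close to the median gene, and their values were below 0 when ratios were centred on the median over lncRNAs or over every gene above 0 TPM. With these centrings, 1 and 3 members were higher and 2 were lower in each, with no share of genes at these settings beside them. SNHG5, SNHG12 and ZFAS1, whose annotated start is a C followed directly by at least 4 more C or T bases, thus lay at both ends of this order. SNHG16, with a run of 8 bases elsewhere in its printed window, was at -0.85. A link between these starts and the ratio was not tested. By deposited value, GAS5, SNHG1, SNHG12, SNHG15 and ZFAS1 had both the higher TPM and the higher EPKM in PABPN IP, and SNHG5 and SNHG16 had both in PABPC IP. SNHG6, SNHG7 and SNHG8 had the higher TPM in PABPN IP and the higher EPKM in PABPC IP.

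Other non-coding snoRNA hosts were compared with the members through a list of 19 genes, of which 18 were in the table and 14 passed the TPM requirement. Their median EPKM was 0.0295 in Input, 0.0617 in PABPN IP and 0.0266 in PABPC IP, so that PABPN IP was the highest fraction here and PABPC IP among the members. In this list, 4 of 14 were at least 2-fold higher and 4 of 14 at least 2-fold lower in PABPC IP than in PABPN IP, against 4 and 4 of the 10 members. SNHG29 had the highest PABPC IP value, 0.454, and also the lowest TPM ratio of PABPN IP to PABPC IP, -1.48, beyond the -1.20 of SNHG5. SNHG9, SNHG25 and SNHG30 shared the lowest PABPC IP value and were listed at 0, which no member was. SNHG17 had the highest TPM ratio of PABPN IP to PABPC IP, 2.72, below the 2.96 of SNHG12. By this ratio 10 of the 14 were higher in PABPN IP past the threshold and 2 were lower.

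Protein-coding snoRNA hosts, 52 genes of which 52 passed, differed more from the members in the TPM ratio of PABPN IP to PABPC IP. Their median centred TPM ratio of PABPN IP to PABPC IP was -1.35, against 0.43 for the members, 0.93 for the other non-coding hosts, 0.46 for other lncRNAs and -0.03 for PCGs. Past the threshold, 34 of the 52 were lower in PABPN IP than in PABPC IP and 10 were higher. Every ribosomal protein gene of the list was among the lower ones, and the higher ones all encode other proteins. The median of the list thus depends on its share of ribosomal protein genes. Many of these hosts encode ribosomal proteins and translation factors, and their median Input TPM was 358, so that SNHG16 was the only member above it. Editing of these hosts was also higher, with a median EPKM of 0.223 in Input, 0.122 in PABPN IP and 0.215 in PABPC IP. In PABPC IP, SNHG6 and SNHG8 were the members above that median. The highest PABPC IP value in the list was 1.95, in RPL12, and 7 of its genes, EEF1B2 among them, were listed at 0. The TPM ratio of PABPN IP to PABPC IP was highest in TAF1D, at 1.55, and lowest in RPS3, at -2.67.

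**Figure D5:**
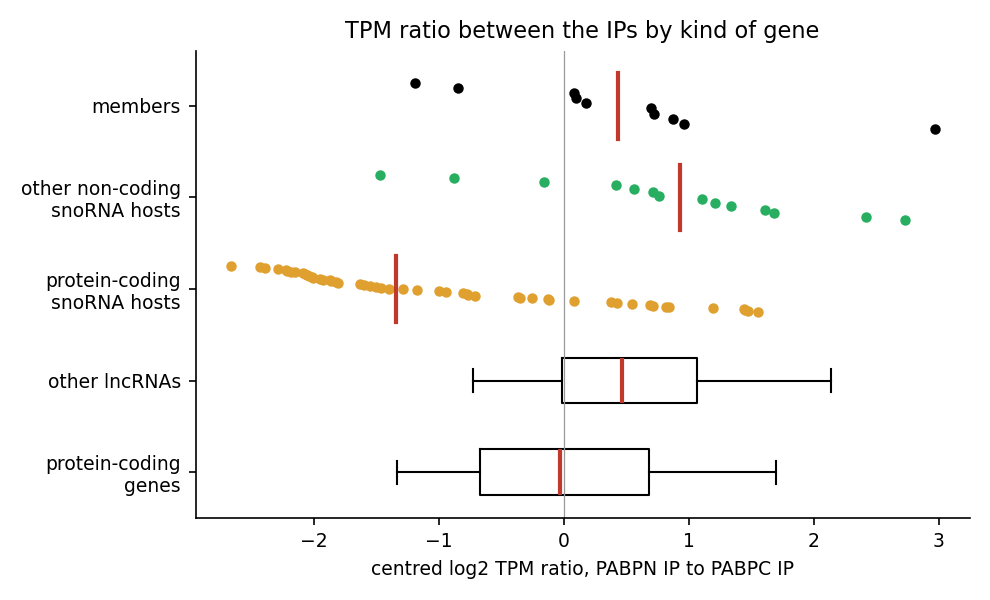
Centred log2 TPM ratio of PABPN IP to PABPC IP by kind of gene, with a point for each member and listed host, and with boxes for the quartiles and whiskers from the 5th to the 95th percentile of other lncRNAs and PCGs. Red lines are medians, at 0.43 for the members and -1.35 for the listed protein-coding snoRNA hosts.

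Likeness to the members was measured as the distance to their median pattern over 5 values, both log2 TPM ratios to Input and log2(EPKM + 0.01) in the 3 fractions, each divided by its SD over the 499 lncRNAs. The members help to set this median, so their own ranks are not independent of it, and leaving each member out was not run. SNHG7 ranked nearest of all lncRNAs, at 0.368, and SNHG12 ranked 488 of 499, at 3.85. The other members ranked from 95 for SNHG5 to 310 for SNHG8, with SNHG6, ZFAS1, SNHG16, SNHG1, SNHG15 and GAS5 between them in this order. The nearest 5 lncRNAs outside the list were HOXA11-AS (0.420), MRPL20-AS1 (0.644), EBLN3P (0.678), FGD5-AS1 (0.692) and ENSG00000273391 (0.758). All 5 were above 0 EPKM in each fraction. HOXA11-AS, for instance, had an EPKM of 0.0508 in Input, 0.0364 in PABPN IP and 0.110 in PABPC IP, close to the values of SNHG7 in both IPs.

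The members varied in gene structure. In the GENCODE 44 annotation of hg38 they had a median of 4 exons per transcript, from 3 in SNHG6 and SNHG8 to 10 in GAS5, beside 2 for other lncRNAs and 5 for PCGs. Several overlap other genes. The share of exonic bases that also lie in another gene on either strand was 98.4% for SNHG5, 79.8% for SNHG8, 58.9% for SNHG6, 58.0% for ZFAS1 and 45.7% for SNHG7. It was 28.5% for SNHG16, 10.4% for GAS5, 0.188% for SNHG12 and 0 for SNHG1 and SNHG15. The authors removed regions of overlapping genes before counting, with an annotation derived from another GENCODE release, and which bases of the members were removed was not measured here. SNHG6 and SNHG8, the members with the highest PABPC IP editing, were among the members with overlap, as was SNHG5. So was ZFAS1, with an EPKM of 0.00894 in PABPC IP, whereas SNHG15, with an overlap of 0, had 0.171 there. The part of overlap in these values was not tested.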

How the data were processed

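Ribosomal RNA-depleted RNA of Input, PABPN IP and PABPC IP was sequenced from RPS2-STAMP and Control-STAMP cells. The authors used STAR for alignment to hg38 and counted reads with featureCounts 2.0.2 (submitters' processing notes). The deposited normalized EPKM is a signal from edits with a confidence score of at least 0.5, with control editing subtracted. All 18869 genes have no value below 0, so a listed 0 may stand for editing at or below that of the control. How values below 0 and replicates were handled is not given in the sources used here. The deposited average TPM sums exonic and intronic TPM over a GENCODE annotation without overlapping and readthrough regions. 

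Here, log2(EPKM + 0.01) differences were called past 2-fold and centred log2 TPM ratios past 0.5, over genes that reached 5 TPM in each IP. The code for these calls was checked on simulated data, which gives no error for the measured values. Named genes are the members, the 5 nearest lncRNAs, the extremes of each host list and, chosen after their values were seen, snoRNA genes within the members. The members and lists were chosen with earlier results of these data known. Alternatives changed pseudocounts, thresholds, centring and gene sets. Gene structure came from GENCODE 44. Python 3.11.15, NumPy 2.4.6, pandas 2.3.3 and matplotlib 3.10.9 were used.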

Additional observations from a re-analysis of the deposited data

How the results depend on the processing

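No paired analysis was possible because each deposited value is pooled over replicates, and for the same reason leaving out single replicates was not run. Without replicate error, a value or number within 1.5 times the reported one was counted as unmoved. Of 102 alternative values over 33 results, 66 were unmoved, 34 moved and 2 changed sign. Where not shown by the setting itself, the cause was not tested.

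With a pseudocount of 0.1 EPKM, 2 members were higher and 1 lower past 2-fold in PABPC IP against PABPN IP, and 1 was lower in PABPN IP against Input. Shares of all genes used were taken at the main settings. The members' numbers at other pseudocounts, centrings and call thresholds therefore have no such share beside them. Over every listed gene, 19.3% of genes were lower in PABPN IP than in Input past 2-fold.

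The members' median log2 TPM ratio of PABPN IP to Input was 1.85 without centring, 0.0323 centred on lncRNAs and 0.42 over every gene above 0 TPM. The number higher was 10, 1 and 5 in these settings, and 3 at a threshold of 1. The number lower was 2 centred on lncRNAs and 2 over every gene above 0 TPM. SNHG8 was at -0.0755 centred on lncRNAs. For PABPC IP to Input the median was 1.29 without centring and 0.12 centred on lncRNAs. There, 9 were higher and 0 lower without centring, 2 were lower centred on lncRNAs, and 0 were higher at a threshold of 1. For PABPN IP to PABPC IP the median was 0.66 without centring, -0.0291 centred on lncRNAs and 0.0926 over every gene above 0 TPM. The number higher was 1 centred on lncRNAs, 3 over every gene above 0 TPM and 1 at a threshold of 1, where 1 was lower.

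The members' median minus that of other lncRNAs was 0.0501 EPKM in Input with means in place of medians, and 0.00292 in PABPN IP at a TPM of at least 20. Minus that of PCGs, over every listed gene, it was 0.0212 in Input, 0.0197 in PABPN IP and 0.0645 in PABPC IP. At a TPM of at least 20, which 8 members reached, it was -0.00504 in PABPN IP and 0.0138 in PABPC IP, and with means it was 0.0187 in PABPN IP. With hosts taken from the annotation, an alternative chosen after seeing the data, the difference from other lncRNAs was 0.0458 in PABPN IP and 0.0157 in PABPC IP. At 0.01 EPKM or more, 6 members counted as edited in PABPC IP.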

Other observations

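The snoRNA genes inside the members have rows of their own. Of 23 such genes within introns of the members in GENCODE 44, 21 were listed with an EPKM, and none of these had a TPM. None of the 23 lies in GAS5, whose 11 snoRNA genes were taken from RefSeq. SNORD29 and SNORD31 of SNHG1 and SNORD50A of SNHG5 were likewise outside the 23. Whether GENCODE 44 holds these genes outside introns was not examined. In all, 14 were above 0 in at least 1 fraction, 7 in Input, 8 in PABPN IP and 2 in PABPC IP. Of the 191 other snoRNA genes in the table, 65.4% were above 0 in at least 1 fraction, 22.0% in Input, 48.2% in PABPN IP and 23.0% in PABPC IP. PABPN IP was the most frequent fraction there, whereas the members' 8 in PABPN IP and 7 in Input were nearly equal. The examples named here were chosen after their values were seen. SNORD12 and SNORD12B, in introns of ZFAS1, had an EPKM of 0.654 and 0.623 in PABPN IP and were listed at 0 in Input and PABPC IP, while SNORD12C of the same host had 0.466 in Input and was listed at 0 in both IPs. SNORD27, within SNHG1, had 0.634 in PABPN IP and 0.0948 in Input. SNORA16A, within SNHG12, had 0.524 in PABPN IP, 0.252 in PABPC IP and 0.0117 in Input, while SNORA61 of the same host had 0.257 in Input and was listed at 0 in both IPs. SNORD87 was above 0 in PABPN IP alone, at 0.234, where its host SNHG6 was listed at 0. SNORA24 was above 0 in Input alone, at 0.348, where its host SNHG8 was listed at 0. Whether these edits lie in host RNA that still held its introns was not tested.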
